A study of Pinus pinaster with 6 samples.

Results

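The transcript described here is the row pp_184219 of the deposited expression table of maritime pine (*Pinus pinaster*) roots, 1 of 46658 transcripts, and it was chosen by that identifier and not by its values. It was taken up under the name ammonium transporter 1.3 (AMT1.3). That name was not borne out by the study's own tables. The primer table of the study gives ammonium transporter 1.3 the identifier pp_203543. None of the 5 annotation tables searched describes pp_184219, and none describes pp_203543 either, some of them being held here only in part. The lack of a description therefore does not tell these identifiers apart, and the name rests on the primer table. The gene ontology lists of the study, also held only in part, show pp_184219 under 13 terms, of which 7 are of transport and 3 of the cytoskeleton, and show pp_203543 under none. The row is therefore called by its identifier, no gene name is given to it, and pp_203543 is described beside it.

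Direct RNA sequencing (DRS), in which native poly(A) RNA molecules are read one by one in a nanopore, was carried out on whole roots of one-month-old seedlings. The ammonium group (libraries N1, N2 and N3) received 80 mL of 3 mM NH4Cl, and the control group (libraries C1, C2 and C3) received 80 mL of water, each after a few days of acclimation in seedbeds and with roots collected at 24 h. The 2 groups had 3 libraries each. The study repeated the whole experiment independently, but which library came from which repeat is not stated beyond its number. The source population of the seeds, the substrate and the earlier watering were the same in both groups, and the number of seedlings behind a library is not given in the sources used here. Whole roots mix many cell types, so fewer cells of a type and less RNA per cell cannot be told apart, and no markers of root cell types were checked.

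Ammonium transporters of the AMT family are membrane proteins that carry ammonium into plant cells. In roots, members of the AMT1 group take up ammonium from the soil solution. Inside the cell, glutamine synthetase joins ammonium to glutamate to give glutamine, and glutamate synthase (GOGAT) turns glutamine and 2-oxoglutarate into glutamate. Transcripts of both steps, together with those of asparaginase, serve below as the group against which pp_184219 and pp_203543 are set.

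The link between the transporter name and pp_203543 rests on the primers that the study lists for this gene, used to check the ammonium response by RT-qPCR. They are printed 5′ to 3′ in lower case, with nothing in capitals, because they are the designed sequences that tie the name to an identifier. Each is 20 bases long, with 11 G or C bases in the forward primer and 10 in the reverse primer. The table gives no primer for pp_184219.
qpp-AMT1.3-F: gcacaaattcatcccacggg
qpp-AMT1.3-R: tcaacgttacccacaccaca

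Transcript pp_184219 was somewhat more abundant in ammonium roots than in water roots, but the difference lay within the spread of the libraries. Its level was 11.7 CPM in N1, 8.53 CPM in N2 and 10.5 CPM in N3, against 10.7 CPM in C1, 6.14 CPM in C2 and 6.40 CPM in C3, where CPM is the authors' read count scaled to library size. The 3 ammonium libraries were all above C2 and C3. C1 lay above N2 and N3 and below N1, so the groups overlapped through this 1 library. The mean was 10.2 ± 1.60 CPM in ammonium roots and 7.76 ± 2.58 CPM in water roots (SD, n = 3 each).

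The reads behind these values were few. The ammonium libraries held 36 (N1), 40 (N2) and 59 (N3) reads of pp_184219, against 14 (C1), 30 (C2) and 29 (C3) in the water libraries. The exact Poisson 95% interval ran from 8.19 to 16.2 CPM in N1, from 6.09 to 11.6 CPM in N2 and from 8.01 to 13.6 CPM in N3. In water roots it ran from 5.87 to 18.0 CPM in C1, from 4.14 to 8.76 CPM in C2 and from 4.29 to 9.20 CPM in C3. These intervals cover counting error only. C1, the library that brings the groups to overlap, was thus also the least certain, with 1 read worth 0.767 CPM there and 0.178 to 0.325 CPM in the other 5 libraries. At the pooled rate of C2 and C3, C1 would have held 8.17 reads where 14 were counted.

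**Figure D1:**
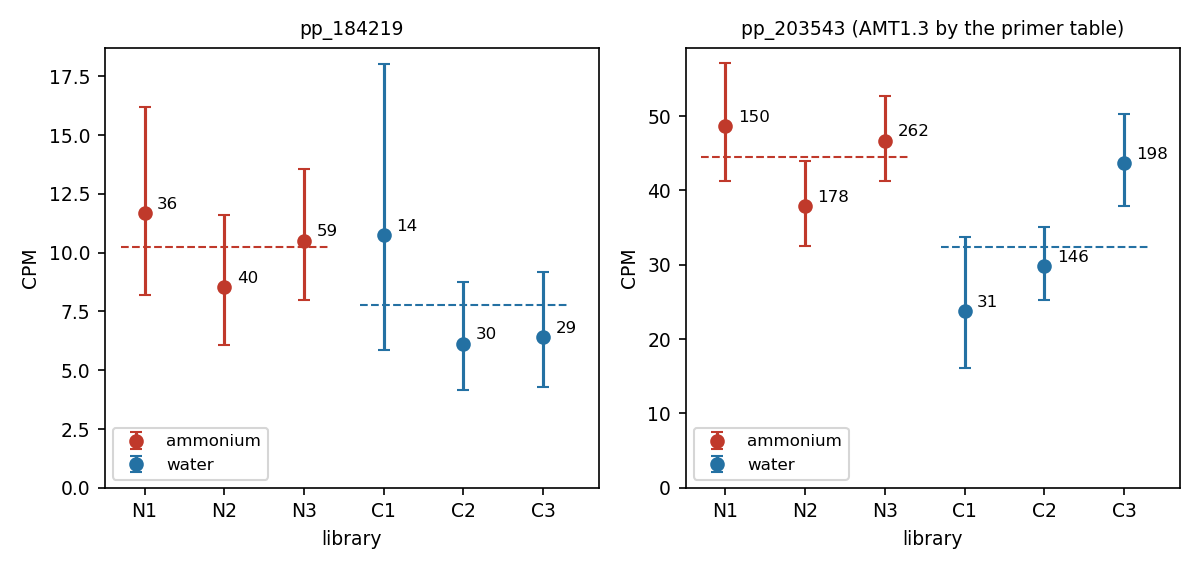
CPM (vertical axis, from 0) of pp_184219 (left panel) and pp_203543 (right panel) in each library, ammonium (N1 to N3, red) left of water (C1 to C3, blue). Bars are exact Poisson 95% intervals, dashed lines are group means and the numbers are reads. C1 stands at 10.7 CPM from 14 reads of pp_184219 and, from 31 reads, is the lowest library of pp_203543 at 23.8 CPM.

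Limma on log2(CPM + 1) gave pp_184219 a log2 fold change of 0.39 for ammonium over water (SE 0.23, 95% interval -0.10 to 0.88), with adjusted p = 0.665 over all transcripts. The unadjusted p was 0.109 in limma. The exact two-sided permutation test over the 6 libraries gave p = 0.3, and with 3 against 3 libraries it cannot go below 0.1. Limma called 18 transcripts of the table (0.0386% of those tested), 4 of them higher (0.00857%) and 14 lower (0.03%) under ammonium, and pp_184219 was not among them. A row with its standard error would have needed a log2 fold change of 1.42, or 2.68-fold in CPM + 1, to reach the p of the last transcript called. At that standard error the change measured was too small for a call in this run, which restates its unadjusted limma p of 0.109. A p that misses the threshold does not show that the level stayed the same, and the interval allows from slightly less to almost 1 log2 unit more under ammonium.

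By its log2 fold change pp_184219 ranked 4497 of 46658 from the top, above 90.4% of transcripts, and by its limma p it ranked 7646. Its standard error was close to the median over all transcripts (0.23 against 0.24 on the log2 scale). Within ammonium libraries its reads varied about as counting alone would give, with a chi-square per degree of freedom of 1.01, and within water libraries the value was 1.70. Pooling the reads of a group gave 10.1 CPM in ammonium roots from 135 reads and 6.81 CPM in water roots from 73 reads. The pooled ratio was 1.48, with an exact 95% interval of 1.11 to 2.00 that covers counting error only and leaves out the spread between libraries.

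The direction did not turn under any of the 20 alternative settings, in which the log2 fold change of pp_184219 ran from 0.26 to 0.69. None of them called it, the smallest adjusted p being 0.363, from edgeR's exact test without C1, a setting chosen after the data were seen. Without C1 limma gave a log2 fold change of 0.62 (95% interval 0.18 to 1.06, adjusted p = 0.474), and the ammonium libraries then all lay above the 2 water libraries left. Leaving out C1 was the step that moved the value most among the single libraries. Without C1 the ratio of mean CPM was 1.63, against 1.32 with all libraries.

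**Figure D2:**
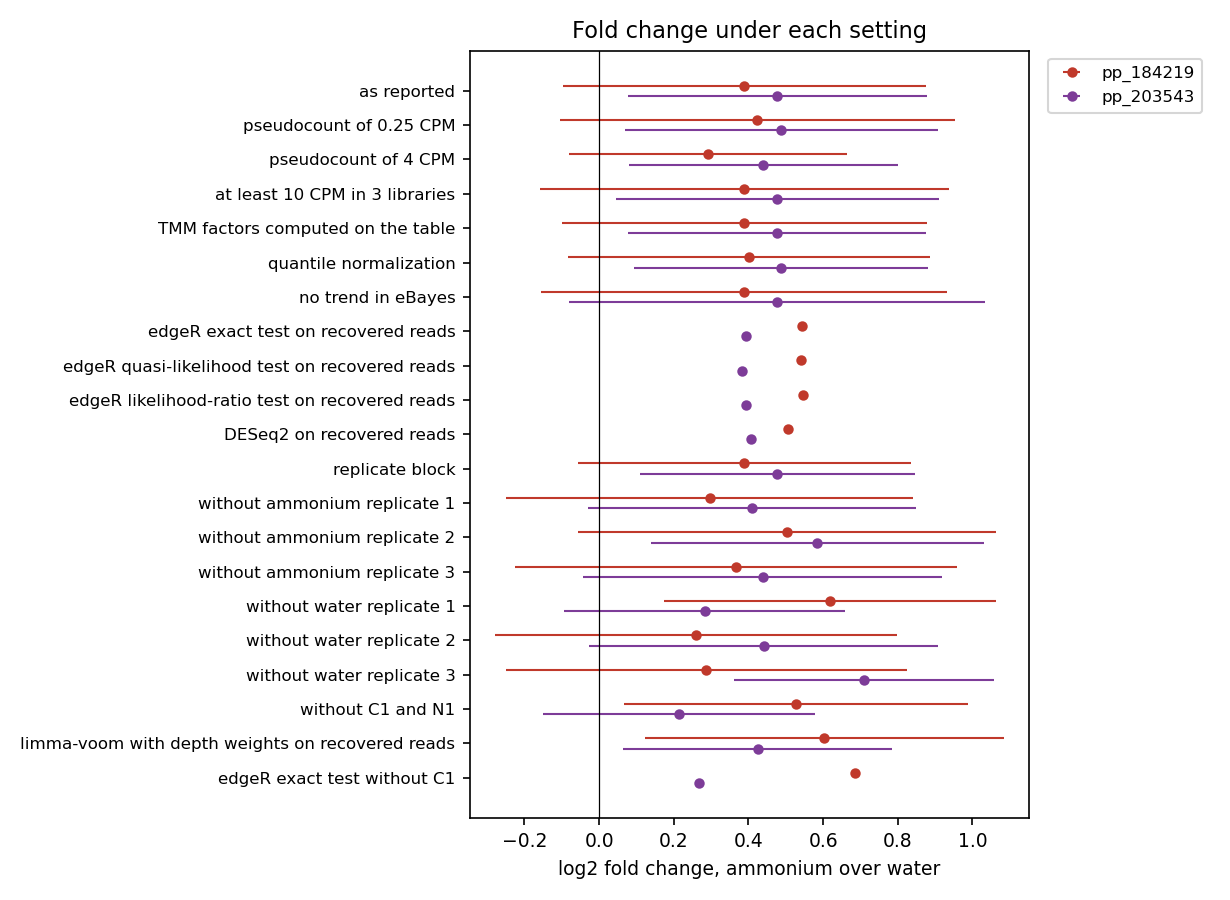
Log2 fold change of ammonium over water (horizontal axis) for pp_184219 (red) and pp_203543 (purple) as reported and under each of 20 alternative settings (rows), with 95% intervals where the fit gives them. All points lie above 0; the red point is lowest, at 0.26, without water replicate 2, and highest, at 0.69, in edgeR's exact test without C1.

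In level, pp_184219 belonged to the middle of the table. Its mean of 9.003 CPM over the 6 libraries ranked 19380 of 46658, above 58.5% of transcripts. By group means it ranked 17477 in ammonium roots and 21614 in water roots. Within single libraries its rank was 15484 in N1, 19955 in N2 and 17061 in N3, against 16559 in C1, 24873 in C2 and 24378 in C3. From high to low the libraries ran N1, C1, N3, N2, C3 and C2, by rank and by CPM alike, and each neighbouring pair in that order had overlapping counting intervals. CPM is not divided by transcript length, because in DRS each read comes from a single molecule. The rank is one of reads assigned, and a read may count for several near-identical transcripts. Of the 3 rows just above and the 3 just below in mean CPM, whose means lay between 9.002 and 9.004 CPM, 1 carries a description, pp_153575, a small subunit of acetolactate synthase, an enzyme of branched-chain amino acid synthesis.

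**Figure D3:**
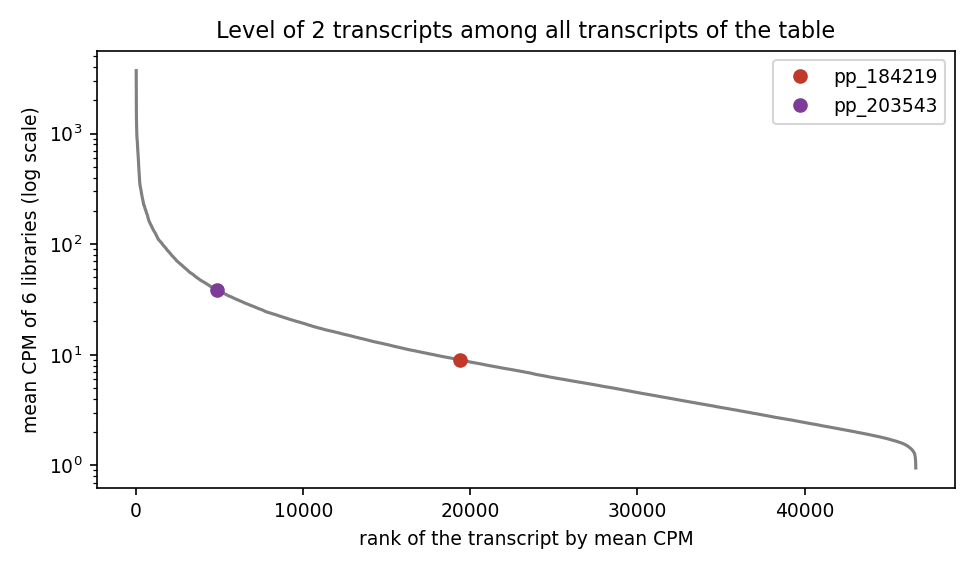
Mean CPM of the 6 libraries (vertical axis, log scale) against rank by mean CPM (horizontal axis, highest first) for the transcripts of the table. The red point is pp_184219 at rank 19380 and the purple point is pp_203543 at rank 4863.

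Transcript pp_203543, which carries the transporter name in the primer table, was measured at a higher level and with more reads. Its level was 48.7 CPM in N1, 38.0 CPM in N2 and 46.7 CPM in N3, against 23.8 CPM in C1, 29.9 CPM in C2 and 43.7 CPM in C3. The reads were 150, 178 and 262 in the ammonium libraries, against 31, 146 and 198 in the water libraries. N1 and N3 were above all water libraries, while C3 lay above N2, so these groups overlapped as well. C1 was the lowest library here and the highest water library for pp_184219.

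The mean of pp_203543 was 44.5 ± 5.72 CPM in ammonium roots and 32.5 ± 10.2 CPM in water roots (SD, n = 3 each). Limma gave a log2 fold change of 0.48 (SE 0.19, 95% interval 0.08 to 0.88), with an unadjusted p of 0.0225 and adjusted p = 0.497 over all transcripts. At an unadjusted p under 0.05 limma listed 8.67% of all transcripts, so pp_203543 was 1 of 4047. The exact two-sided permutation test gave p = 0.2. Without C1 its log2 fold change was 0.28 and without C3 it was 0.71, with adjusted p = 0.822 and 0.197 from limma, so the value depended on which water library was left out. Leaving out C1 therefore moved pp_203543 down and pp_184219 up.

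Relative to the mean, the libraries spread about as widely for pp_203543 as for pp_184219. The coefficient of variation was 12.9% for pp_203543 and 15.6% for pp_184219 within ammonium libraries, and 31.5% and 33.3% within water libraries. Counting error alone would give 7.33% for pp_203543 and 15.2% for pp_184219 within ammonium libraries, and 12.1% and 21.5% within water libraries, because pp_203543 had 965 reads in all and pp_184219 had 208. At the pooled rate of C2 and C3, C1 would have held 47.6 reads of pp_203543 where 31 were counted. Over all transcripts, C1 was the highest of the water libraries in 36.6% and the lowest in 38.6%. Both transcripts thus had C1 at an end of the water group, at opposite ends. The part of this library in either result beyond the values given here was not tested.

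Across the libraries pp_184219 and pp_203543 were weakly correlated. The Pearson correlation of log2(CPM + 1) between pp_184219 and pp_203543 was 0.14 over 6 libraries, and 17382 of the other 46657 transcripts had a higher one. The transcripts most like pp_184219, among 2260 with a mean of at least 10 CPM and an informative description, were pp_197390, a bifunctional dehydroquinate dehydratase and shikimate dehydrogenase of the shikimate pathway (r = 0.97), pp_166954 and pp_166956, both UDP-glucuronic acid decarboxylase, which makes UDP-xylose for cell walls (r = 0.95 and 0.94), pp_217232, syntaxin of plants 132, a protein of vesicle fusion (r = 0.94), and pp_58650, an oligouridylate binding protein (r = 0.94). These values describe 6 libraries that include C1, and 20 of the 2260 (0.885%) had r above 0.9. How many unrelated transcripts would pass 0.9 over 6 libraries was not tested. The rows pp_166954 and pp_166956 had the same CPM in N1, N2, C1 and C3, so they are not separate matches. pp_197390 stood at 40.6, 33.3 and 35.8 CPM in N1, N2 and N3, against 38.4, 27.4 and 30.3 CPM in C1, C2 and C3, so it shared the high C1 of pp_184219. Limma called none of these 5 transcripts, whose log2 fold changes ran from 0.05 to 0.31.

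**Figure D4:**
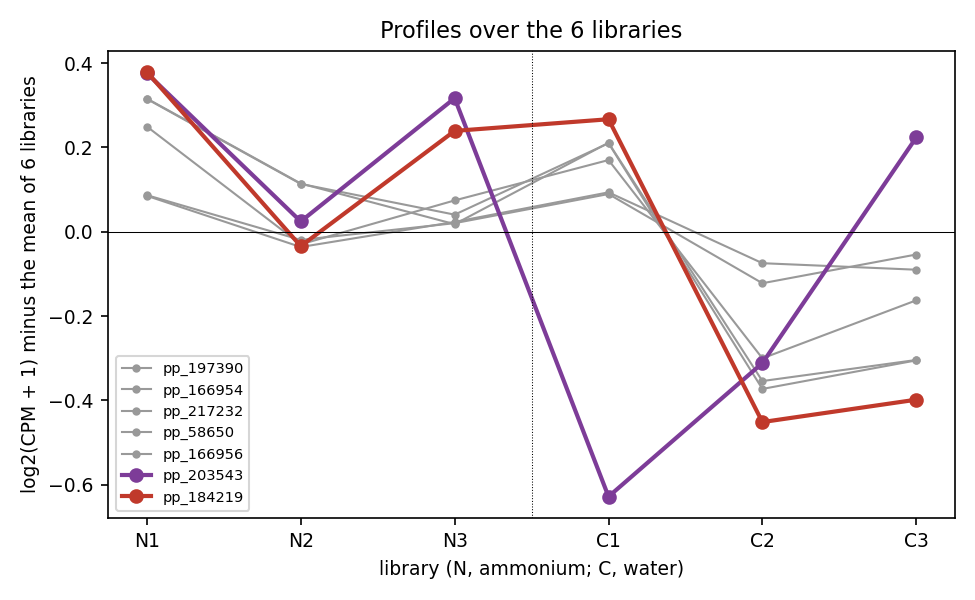
Log2(CPM + 1) minus the mean of the 6 libraries (vertical axis) in each library (horizontal axis, ammonium N1 to N3 left of water C1 to C3) for pp_184219 (red), pp_203543 (purple) and the 5 transcripts most correlated with pp_184219 (grey). The red and grey lines are high in C1 and low in C2 and C3, whereas the purple line is lowest in C1.

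No other row carried the same reads as pp_184219. Of the rows of the table, 5202 (11.1%) shared all 6 read numbers with another row, as can happen where reads are assigned to several near-identical transcripts. None came within 1 read of pp_184219, or of pp_203543, in every library. The 12 measured rows with identifiers from pp_184210 to pp_184228, described only because their numbers are consecutive, had log2 fold changes from -0.03 to 0.18, with a median of 0.03, and none was called by limma. Several of them were near-copies of each other, with 8 distinct read profiles among the 12. The 5 measured rows around pp_203543 ran from -0.41 to 0.06, and none was called. Both pp_184219 and pp_203543 therefore had a higher fold change than each measured row with a nearby number, although a nearby number does not make a row a form of the same gene.

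Transcripts grouped here as ammonium assimilation had higher mean levels in ammonium roots than in water roots. The group also holds the asparaginase forms pp_167571 and pp_167572, whose enzyme lies outside the glutamine synthetase and glutamate synthase steps. Of 12 listed forms of glutamine synthetase, NADH-dependent glutamate synthase and asparaginase, 11 were measured, and all 11 had a log2 fold change above 0, as had 50.7% of all transcripts. Their median was 0.60, against 0.00 over all transcripts. Limma called 1 of the 11 as risen, the glutamate synthase form pp_238920, and none as fallen, while edgeR's exact test on the recovered reads called 9, against 0.81% of all transcripts. The study chose most of these transcripts on the same libraries, and the glutamate synthase forms may share reads, so the counts are not independent evidence of direction. In 10 of the 11 the ammonium libraries all lay above the water libraries, which was so for 7.16% of all transcripts and not for pp_184219 or pp_203543.

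The glutamine synthetase form pp_68474 was the most abundant of the 11, with 850 ± 12.6 CPM in ammonium roots and 733 ± 20.6 CPM in water roots (SD, n = 3 each). Its log2 fold change was 0.21, with adjusted p = 0.506 in limma and 0.672 in edgeR's exact test. The study gives the name *PpGS1b* both to pp_68474 and to the form pp_68481, described as cytosolic. The form pp_68481 had 19.9 ± 3.24 CPM in ammonium roots and 9.45 ± 1.19 CPM in water roots (SD, n = 3 each). That water level was like that of pp_184219 in water roots. The log2 fold change of pp_68481 was 0.99, with an SE of 0.18. Its adjusted p was 0.0783 in limma, and edgeR's exact test gave 0.000434. In edgeR's exact test pp_184219 had adjusted p = 0.649 and pp_203543 had 0.489. The asparaginase form pp_167571, whose enzyme releases ammonium from asparagine, had a log2 fold change of 0.65, with adjusted p = 0.172 in limma and 0.0192 in edgeR's exact test. The other asparaginase form, pp_167572, had a log2 fold change of 0.14 with overlapping groups, and its adjusted p was 0.722 in limma and 0.906 in edgeR's exact test. The difference in response between these transcripts and pp_184219 was not tested.

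The antimicrobial peptide *PpAMP1* (pp_58007) was the other gene that the study used to check each experiment. It had 845 ± 253 CPM in ammonium roots and 536 ± 45.6 CPM in water roots (SD, n = 3 each). Its adjusted p was 0.220 in limma and 0.0446 in edgeR's exact test. Its ammonium libraries all lay above its water libraries, which was so for 7.16% of all transcripts. The study reports other forms of *PpAMP1* as upregulated, and those are not described here. The RT-qPCR reference transcripts pp_199988, a saposin-like aspartyl protease, and pp_238578, S phase kinase-associated protein 1, had log2 fold changes of 0.11 and 0.07, both with overlapping groups.

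**Figure D5:**
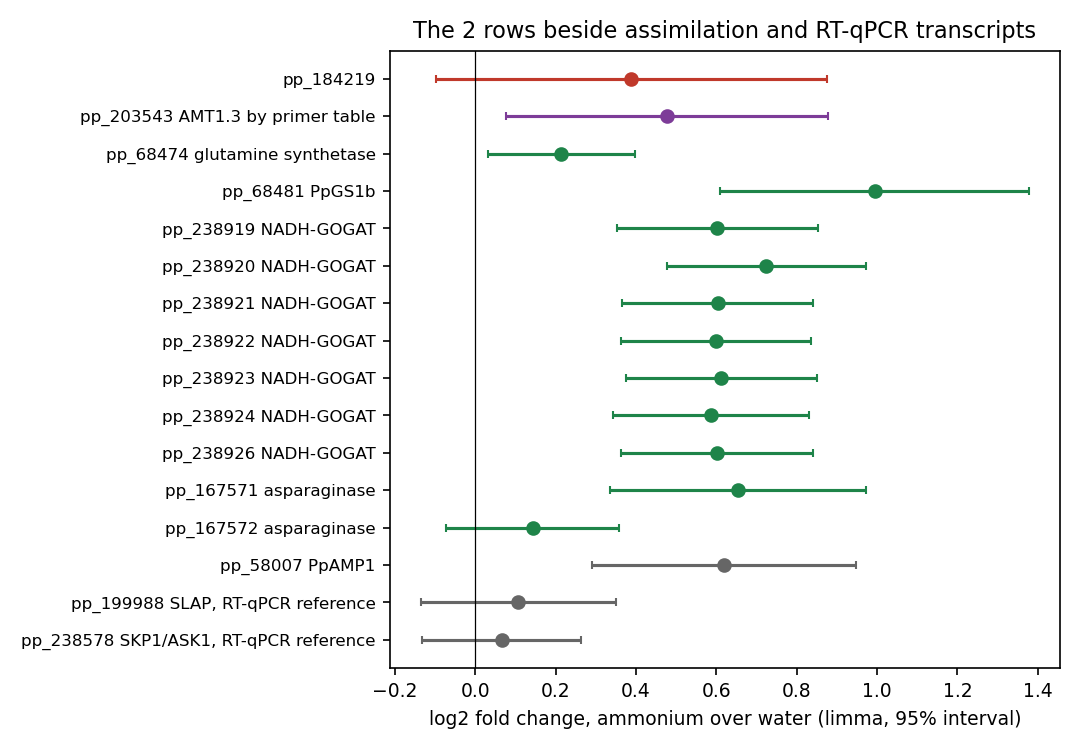
Log2 fold change of ammonium over water from limma (horizontal axis) with 95% intervals for pp_184219 (red), pp_203543 (purple), 11 transcripts of the ammonium assimilation group, asparaginase included (green), and 3 RT-qPCR control and reference transcripts (grey). The interval of pp_184219, -0.10 to 0.88, spans 0 and is the widest shown.

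Other transcripts of membrane transport were not called. Of 40 transcripts annotated as aquaporins, porins, channels, proton pumps or transporters, 37 were measured. Of these, 27 had a log2 fold change above 0 and 10 below, with a median of 0.13, while 50.7% of all transcripts were above 0. Limma called none of them, against 0.0386% of all transcripts. Neither did edgeR's exact or quasi-likelihood test (which called 0.81% and 0.244% of all transcripts). No call among 37 transcripts is close to these shares. At an unadjusted p under 0.05 limma listed 7 higher and 1 lower, against 4.1% higher and 4.58% lower of all transcripts. The 7 are not all separate, because pp_58517 and pp_58519 had nearly the same reads, as had pp_215542 and pp_215543. The list was drawn partly from transcripts that the study reported with modified positions in these same libraries, so these shares are not a like comparison. A plasma membrane ATPase (pp_227302), a proton pump that energizes uptake across the root cell membrane, had 171 ± 32.5 CPM in ammonium roots and 127 ± 16.2 CPM in water roots (SD, n = 3 each), with a log2 fold change of 0.42 (adjusted p = 0.422 from limma), close in size to that of pp_184219 with a smaller standard error of 0.14. A probable aquaporin (pp_155037), a water channel, had a log2 fold change of 0.47 (adjusted p = 0.451 from limma). The porin pp_155515, of the mitochondrial outer membrane, had a log2 fold change of -0.47 (adjusted p = 0.437 from limma), and the porin pp_58517 one of 0.35 (adjusted p = 0.474 from limma). The rows pp_155516 and pp_155519, with the same description as pp_155515, had log2 fold changes of 0.14 and 0.32.

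Limma likewise called none of the transcripts that share ontology terms with pp_184219, against 0.0386% of all transcripts. Lists this short would rarely hold a call at that share. Under cation transmembrane transporter activity, 21 of 34 listed transcripts were measured, 15 above 0 and 6 below on the log2 scale, with a median of 0.12. Of all transcripts, 50.7% were above 0. Under ion transmembrane transport 20 were measured, 12 above and 8 below, with a median of 0.11. Most of these are also in the cation list, so the lists are not separate results. Under actin binding 21 were measured, 11 above and 10 below, with a median of 0.00. In edgeR's exact test 1 member of these lists was called, against 0.81% of all transcripts. It was the profilin pp_71321, an actin-binding protein (adjusted p = 0.00841 from edgeR's exact test and 0.248 from limma), singled out after its values were seen. The lists are shortened, so these counts cover only the members shown. They join transcripts that the study itself selected, partly from these same libraries, with only part of the other members. A call among them is therefore not independent evidence, and the share over all transcripts is not a like comparison.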

How the data were processed

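The submitters' processing notes name minimap2 and edgeR. As the study describes, base-called reads were filtered by quality and aligned to the maritime pine root transcriptome, and transcripts reaching 2 CPM in 2 or more libraries were kept. The authors deposited CPM values (reads scaled to library size) in 1 table. The sources used here name neither the counting program nor the versions. In all 6 libraries 100% of values were whole multiples, within 1e-06, of the CPM of 1 read. Recovered reads numbered from 1270378 (C1) to 5416076 (N3), a 4.26-fold range, and a read may count for several near-identical transcripts. On these reads edgeR's exact test called 378 transcripts.

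The main test was limma 3.58.1 (R 4.3.3) on log2(CPM + 1), a scale that understates changes of low transcripts, with a trend in eBayes and Benjamini-Hochberg adjustment over 46658 transcripts at a threshold of 0.05. edgeR 4.0.16 and DESeq2 1.42.0 were alternatives, and 18 alternatives were planned. Limma-voom with depth weights and edgeR's exact test without C1 were chosen after seeing the data. The main limma model was also run on simulated counts with known changes. That run did not cover the read recovery, edgeR, DESeq2 or limma-voom. Named transcripts were pp_184219, pp_203543, consecutive identifiers, assimilation and RT-qPCR transcripts, up to 4 transport transcripts with the smallest p, the 5 most correlated with pp_184219, and 3 rows above and below it in mean CPM. The profilin was named after its values were seen. Members and lists were chosen with earlier results of these data known. Names come from the study's annotation tables.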

Additional observations from a re-analysis of the deposited data

How the results depend on the processing

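Transcript pp_184219 had a log2 fold change above 0 and no call in each of 20 alternatives, from 0.26 to 0.69, with adjusted p from 0.363 to 1.00 in limma, edgeR and DESeq2, and an unadjusted p under 0.05 in 6 of them. Leaving out 1 library at a time gave 0.26 to 0.62. Without both C1 and N1 it was 0.53 (adjusted p = 0.385 from limma). For pp_203543 the 20 values were also above 0 and uncalled, from 0.21 to 0.71, and 0.28 to 0.71 with 1 library left out. The rank of pp_184219, 19380 by the mean of all libraries, was 17477 by the ammonium mean and 21614 by the water mean, each within 1 SD of its ranks in single libraries. The count of transcripts called, 18, depended on the setting. It was 0 without a trend in eBayes (where the assimilation list also had 0), 378 in edgeR's exact test, 114 in its quasi-likelihood test, 451 in its likelihood-ratio test, 83 in DESeq2, 352 without C1 and N1, and, in the settings chosen after seeing the data, 49 in limma-voom and 344 in edgeR's exact test without C1. With 1 library left out it ran from 0 to 71. The assimilation call of 1 became 0 with a pseudocount of 0.25 CPM, 9 in the exact test, 8 in the quasi-likelihood test, 9 in the likelihood-ratio test, 8 in DESeq2, 9 without C1 and N1, 8 in limma-voom and 2 in the exact test without C1, and 0 to 6 with 1 library left out. The causes were not tested. For 18 other named transcripts, 299 of 360 values kept direction and side of the threshold, 55 gained a call, 6 lost one and none reversed.

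With the replicate number as a block, limma gave pp_184219 a log2 fold change of 0.39 (adjusted p = 0.621) and pp_203543 0.48 (adjusted p = 0.440), called 49 transcripts in all and 1 of assimilation. Same-numbered libraries did not deviate together (correlations -0.002, 0.06 and -0.009), and not every library correlated best with its own number, so the numbers were not used as pairs. Each library held 14 to 59 reads of pp_184219.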
